A study of Mus musculus with 6 samples.

Results

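The DNA replication genes described here are 48 genes, listed by symbol, whose products license and open replication origins, copy and join DNA, restore chromatin behind the fork and supply nucleotides. They are 48 of the 23420 genes in the table of the series, and all 48 passed the filter on low counts, as did 10607 genes in all. Polyadenylated RNA of activated primary splenic CD4+CD62L+ T cells from Balb/c mice of 12 weeks was measured by RNAseq in 6 libraries, 2 in each of 3 groups. All cells were stimulated on plate-bound antibodies to CD3 and CD28, received 20-fold concentrated shRNA virus (10 µl per well) after 24 h, were fed medium with IL-2 after a further 24 h and were collected after another 48 h. The control group received a scrambled control shRNA. The harmine group received the same control shRNA and 3.7 µM harmine, a plant alkaloid that inhibits DYRK kinases. The third group received shRNA against *Dyrk1a*, the gene of 1 of these kinases. By the methods of the study, harmine was added at feeding, in medium without polarizing cytokines. Harmine was thus given 48 h before collection, and the shRNA virus 24 h before harmine. The control and harmine groups therefore differ by harmine, and the *Dyrk1a* shRNA group differs from the controls by the shRNA. The labels do not name the shRNA sequences in these libraries, a selection of transduced cells, or separate mice or cultures behind the replicates, so the p-values measure only the spread between these libraries, which may be technical.

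Replication begins before S phase, when the origin recognition complex, CDC6 and CDT1 load the ring-shaped MCM helicase onto DNA. CDC45 and the GINS complex then join the ring and open the helix, polymerase alpha with its primase lays down primers, and polymerases delta and epsilon extend them on the sliding clamp PCNA. In a T cell these genes are low at rest and are induced when the activated cell prepares to divide, largely through E2F transcription factors, and DYRK1A is known for phosphorylating the MuvB subunit LIN52, a step in assembly of the DREAM complex that represses cell cycle genes in quiescent cells.

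The E2F motif marks the promoters of many of these genes in the reference genome, and the stretches that hold it are shown because the motif is frequent among them. Promoter windows of RefSeq (GRCm38.p6, 250 bases before to 50 after a start) were found for 41 of the 48 genes. The entries *Mcm4*, *Gins1*, *Gins2*, *Gins4*, *Pole*, *Prim2* and *Rfc2* are missing. A perfect match to TTTCCCGC, TTTCGCGC, TTTGCCGC or TTTGGCGC on either strand, overlaps between matches included, was found for 16 of the 41 genes (39.0%), and for 704 of 27025 genes of the table (2.60%). The 16 genes are *Mcm3*, *Mcm5*, *Mcm6*, *Mcm7*, *Cdc6*, *Cdt1*, *Gins3*, *Orc1*, *Orc3*, *Pola1*, *Pold1*, *Pold3*, *Pole2*, *Rfc3*, *Lig1* and *Uhrf1*. The CCAAT motif (CCAAT, either strand), bound by NF-Y, was found for 25 of 41 genes (61.0%) against 41.1% of all genes. The CHR motif (TTTGAA or TTCGAA, either strand), which the MuvB core binds in promoters of late cell cycle genes, was found for 7 of 41 (17.1%) against 21.7%. A match is a description of the letters and not a bound site.

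Below, 5′ to 3′ on the strand of the gene, are 30 bases around the E2F motif of 4 genes with the motif whose values are given for every library further on, with the matching bases in capitals. In *Mcm5* (chr8:75109347-75109376, + strand, bases -162 to -133 from the start) matches on both strands overlap and form 1 run of capitals. In *Rfc3* (chr5:151651195-151651224, - strand, bases -16 to 14) 1 match lies on either side of the start, while those of *Pold1* (chr7:44548766-44548795, - strand, bases 21 to 50) and *Lig1* (chr7:13278841-13278870, + strand, bases 16 to 45) lie after it. These positions count from the RefSeq start of the window. In GENCODE M21 *Rfc3* begins at chr5:151651242, before both matches, and *Lig1* at chr7:13277283. The 20 bases checked after the RefSeq start were found within the first 50 bases of a GENCODE transcript in 32 of 50 windows.
Mcm5: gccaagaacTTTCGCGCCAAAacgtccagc
Rfc3: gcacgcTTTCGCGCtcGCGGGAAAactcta
Pold1: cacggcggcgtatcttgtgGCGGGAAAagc
Lig1: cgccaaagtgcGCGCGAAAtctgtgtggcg

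The libraries held 1096345 to 3747648 counts, and the controls were the shallowest, with 1743428 and 1096345. The replication genes took 0.179% to 0.206% of the counts of a library, or 2084 to 7392 counts. *Dyrk1a* itself was at 58.4 and 82.7 CPM (counts scaled by TMM to a library of 1000000) in the controls, 74.8 and 77.6 with harmine and 60.2 and 61.9 with *Dyrk1a* shRNA. Against control the log2 fold change of *Dyrk1a* with *Dyrk1a* shRNA was -0.19 (SE 0.21, edgeR adjusted p = 0.835). The libraries with *Dyrk1a* shRNA lay within the range of the controls, so the RNA of the target did not separate them from the controls. They lay below both harmine libraries, at a log2 fold change of -0.32 against harmine (SE 0.20, edgeR adjusted p = 0.880). The 8 CD4 T cell markers in the table summed to between 2621 and 2923 CPM. Markers of B cells summed to between 219 and 356 CPM, of myeloid cells to between 68.7 and 107, of CD8 T and NK cells to between 69.2 and 137, and of red cells and platelets to between 10.3 and 30.1. Control replicate 1 was the highest library in each of these 4 lists, and *Pax5*, a defining B cell gene, was at 0 in the other 5 libraries. The controls also differed from each other in ribosomal protein genes, which summed to 238654 CPM in replicate 1 and 113811 in replicate 2, with the other libraries from 143033 to 166740. The part of these differences in the results below was not tested. In bulk RNA, fewer cells of a kind and less RNA per cell cannot be told apart.

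Summed over the replication genes, the 3 groups overlapped. Their CPM summed to 1959 and 1759 in the controls, 2113 and 1952 with harmine, and 2014 and 1934 with *Dyrk1a* shRNA. Control replicate 2 was the lowest library and harmine replicate 1 the highest, while control replicate 1 lay within the range of the treated libraries. The median gene was at 33.0 and 28.3 CPM in the controls, 33.5 and 33.3 with harmine, and 33.1 and 34.0 with *Dyrk1a* shRNA, so on this measure the 4 treated libraries lay together above both controls, by a gap to control replicate 1 that is narrower than the gap between the controls.

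Levels differed far more between genes than between conditions. Per kb of the longest coding transcript, averaged over 6 libraries, *Pcna*, the sliding clamp, was highest at 122 CPM per kb (102 to 152 over the libraries), followed by the clamp loader subunit *Rfc3* at 61.3, the single-strand binding subunit *Rpa3* at 54.7 and the dUTPase gene *Dut* at 44.6. The lowest were the catalytic subunit of polymerase alpha, *Pola1*, at 0.91 CPM per kb (0.70 to 1.16), the helicase activation factor *Mcm10* at 1.28, and the catalytic subunit of polymerase epsilon, *Pole*, at 1.76. Within the hexameric MCM helicase, whose 6 subunits are present once each in the ring, levels spanned 3.02-fold, from *Mcm2* at 8.63 to *Mcm7* at 26.1 CPM per kb, and *Mcm7* was the highest and *Mcm2* the lowest subunit in 6 of 6 libraries. *Orc3* was the highest and *Orc1* the lowest subunit of the origin recognition complex in 6 of 6 libraries, at 25.3 and 3.26 CPM per kb. The order at the extremes of these complexes was thus the same in every group, whereas in polymerase alpha and primase the highest subunit on average, *Pola2* at 13.2 CPM per kb, was the highest in 3 of 6 libraries. The cDNA was primed with poly-dT, and whether counts scaled with transcript length was not tested. Without division by length *Pcna* was still highest (185 CPM) and *Pola1* lowest (4.86). Other positions changed, with *Rpa3* (36.7 CPM) below *Rpa1* (87.3) and *Rpa2* (42.1), and *Mcm6* (95.8) above *Mcm7* (77.2).

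**Figure D1:**
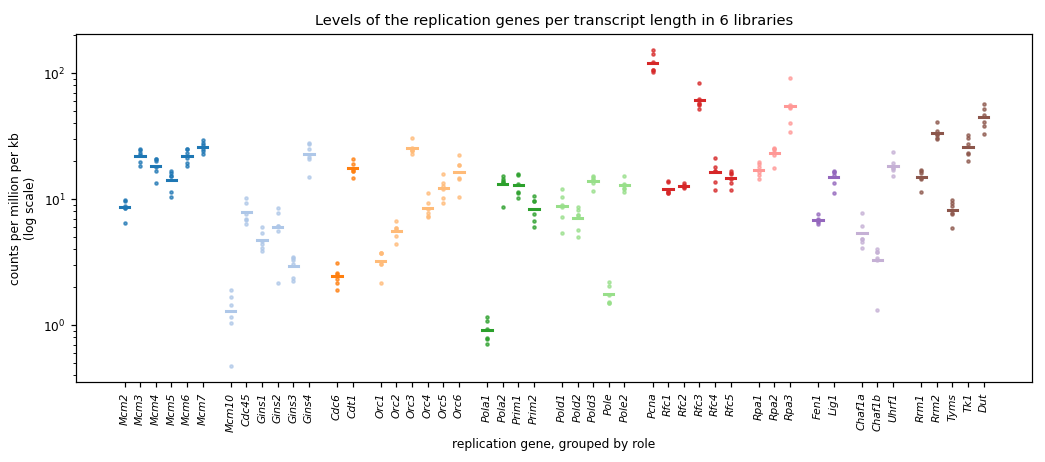
Level of each of the 48 replication genes per transcript length (CPM per kb, log scale), grouped by role. Each dot is 1 of the 6 libraries and each bar is the mean of 6, and *Pcna* stands highest at 122 while *Pola1* stands lowest at 0.91.

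Replicates of a group set the scale on which differences can be read. Between the controls, 9 of 48 genes differed by more than 1.5-fold, among them *Gins2* (30.1 and 8.44 CPM, 3.57-fold), *Chaf1b*, *Orc6*, *Gins4*, *Dut*, *Rpa3*, *Tk1*, *Pola2* and *Pold2*. Only *Orc1* and *Rfc4* did so between the harmine libraries, and *Mcm10*, *Pold2* and *Gins2* between the libraries with *Dyrk1a* shRNA. The median gene differed by 1.21-fold between the controls, 1.12-fold between the harmine libraries and 1.11-fold between those with *Dyrk1a* shRNA. The controls were thus the least alike. They were also the shallowest libraries, and the part of depth in their spread was not tested.

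With harmine, 36 of 48 replication genes had a log2 fold change above 0 against control, beside 5040 of the 10607 genes tested. No replication gene passed the test by edgeR or by DESeq2. The median was 0.18 (range -0.70 to 0.62), beside -0.02 over all 10607 genes tested, of which 0.00943% were called at an adjusted p under 0.05. At an unadjusted p under 0.05, 1 replication gene was higher and 0 were lower, beside 2.22% higher and 3.07% lower of all genes. The harmine libraries lay above both controls for 20 genes and below both for 2, where 16.4% and 15.9% of all genes did so. Without control replicate 2, the shallowest library, the median was 0.076 with 31 of 48 genes above 0, and the count of genes called over the whole table was 291 in place of 1, with no replication gene among them. Without control replicate 1 it was 0.25 with 39 of 48 above 0. The median difference of single libraries was 0.13 and 0.07 for harmine replicates 1 and 2 minus control replicate 1. Minus control replicate 2 it was 0.25 and 0.20. Control replicate 2 minus control replicate 1 gave -0.10, a sign set by the order of subtraction.

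With *Dyrk1a* shRNA, 29 of 48 genes had a log2 fold change above 0 against control, beside 5128 of the 10607 genes tested. Again no replication gene passed by either tool. The median was 0.13 (range -0.96 to 0.81), beside -0.01 over all genes, of which 0.0189% were called. At an unadjusted p under 0.05, *Pold1*, *Chaf1a* and *Mcm5* were higher and *Rpa3* was lower, which is 3 and 1 of 48 beside 3.10% and 4.59% of all genes. The libraries with *Dyrk1a* shRNA lay above both controls for 18 genes and below both for 8, beside 18.5% and 16.9% of all genes. Single libraries with *Dyrk1a* shRNA differed from control replicate 1 by a median of 0.13 and 0.02 and from control replicate 2 by 0.21 and 0.19. The median was 0.22 without *Dyrk1a* shRNA replicate 2 and 0.08 after counts were thinned to equal depth.

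The treatments were also compared directly, since both comparisons above use the same 2 control libraries. Between *Dyrk1a* shRNA and harmine, 20 of 48 genes were above 0 and 28 below, beside 5289 and 5318 of the 10607 genes tested. The median was -0.04 (range -0.55 to 0.53), beside -0.001 over all genes. No replication gene passed by either tool, and 0.00943% of all genes did. At an unadjusted p under 0.05, *Chaf1a* was higher with *Dyrk1a* shRNA and *Prim1*, *Rfc3* and *Rpa3* were lower, beside 2.91% higher and 2.82% lower of all genes. The groups did not overlap for 10 genes that were higher and 12 that were lower with *Dyrk1a* shRNA, beside 20.2% and 20.8%, so these counts lie near the background. In each comparison the 95% interval of the median gene reached about 0.5 to either side, at 0.53, 0.53 and 0.47 on the log2 scale, and differences within this reach could not be resolved gene by gene.

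**Figure D2:**
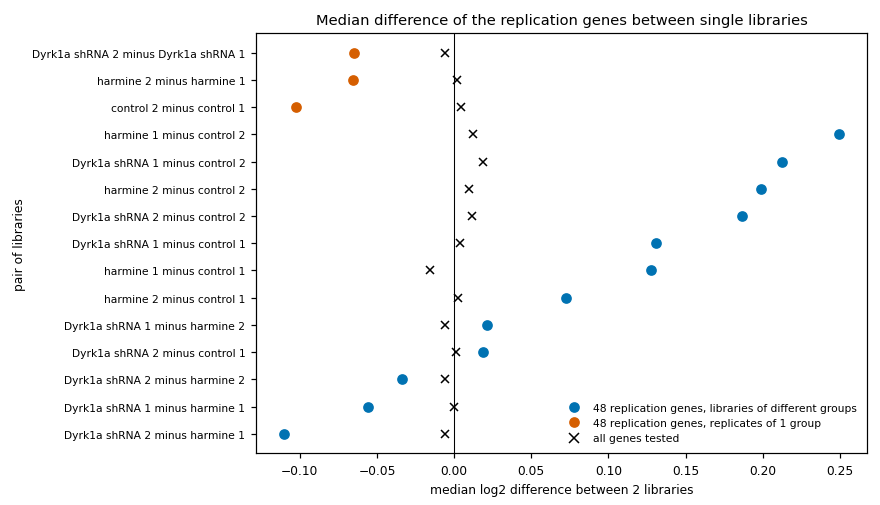
Median log2 difference of the 48 replication genes between each pair of single libraries (dots, orange for replicates of 1 group and blue for libraries of different groups) and of all genes tested (crosses). The 8 differences of a treated library from a control run from 0.02 to 0.25 and share the same controls. The 3 differences between replicates run from -0.10 to -0.06, where the sign is set by the order of subtraction. In size the ranges overlap.

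All 6 subunits of the MCM helicase were above 0 in both comparisons with control, at medians of 0.26 with harmine and 0.32 with *Dyrk1a* shRNA, and their CPM summed to 318 and 348 in the controls, 413 and 394 with harmine and 430 and 397 with *Dyrk1a* shRNA. The treated libraries all lay above the controls on this sum. *Mcm5*, a subunit of the ring, was at 35.2 and 38.8 CPM in the controls, 54.1 and 56.6 with harmine, and 51.3 and 51.9 with *Dyrk1a* shRNA. Its groups did not overlap, and the treated libraries lay above the controls in 4 of 4 cases. On the log2 scale *Mcm5* differed from control by 0.59 with harmine (SE 0.21, unadjusted p = 0.0125, edgeR adjusted p = 0.903) and 0.49 with *Dyrk1a* shRNA (SE 0.21, unadjusted p = 0.0355, edgeR adjusted p = 0.620), and neither passed. Over the alternative settings and left-out libraries these values ranged from 0.50 to 0.74 and from 0.34 to 0.56. The other subunits, *Mcm2*, *Mcm3*, *Mcm4*, *Mcm6* and *Mcm7*, had log2 fold changes of 0.11 to 0.39 with harmine and 0.21 to 0.40 with *Dyrk1a* shRNA. All 6 subunits stayed above 0 with *Dyrk1a* shRNA under every alternative run, and at least 5 of 6 with harmine. Between the treatments the MCM median was near 0, with 3 subunits above 0 and 3 below.

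The origin recognition complex, which marks origins, had a median log2 fold change of 0.29 with harmine and 0.02 with *Dyrk1a* shRNA, and -0.20 between the treatments. With harmine it was 0.17 after thinning, and between the treatments it was -0.06 with length and GC trends removed and a replicate block. *Orc2*, *Orc3*, *Orc4* and *Orc5* lay above both controls in both harmine libraries and also above both libraries with *Dyrk1a* shRNA, whereas *Orc1* and *Orc6* overlapped in each comparison. Of all genes, 16.4% lay above both controls with harmine, and 20.8% lay lower with *Dyrk1a* shRNA than with harmine without overlap. The margin of *Orc2* was narrow, at 21.2 CPM in harmine replicate 1 and 21.1 in *Dyrk1a* shRNA replicate 1. *Orc4* was at 29.5 and 33.8 CPM in the controls, 45.3 and 37.8 with harmine, and 31.4 and 30.1 with *Dyrk1a* shRNA. Thus harmine stood apart, and the other groups overlapped. The log2 fold change of *Orc4* between *Dyrk1a* shRNA and harmine was -0.43 (SE 0.21, unadjusted p = 0.0517, edgeR adjusted p = 0.859). The helicase loaders *Cdc6* and *Cdt1* had log2 fold changes of -0.08 and 0.07 with harmine and 0.23 and 0.30 with *Dyrk1a* shRNA. *Cdt1*, which brings the MCM ring to origins and is removed once S phase starts, was at 37.7 and 32.1 CPM in the controls, 37.0 and 37.0 with harmine and 45.6 and 41.3 with *Dyrk1a* shRNA, where both libraries lay above the other 4. Its log2 fold change against control was 0.30 (SE 0.22, edgeR adjusted p = 0.756).

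**Figure D3:**
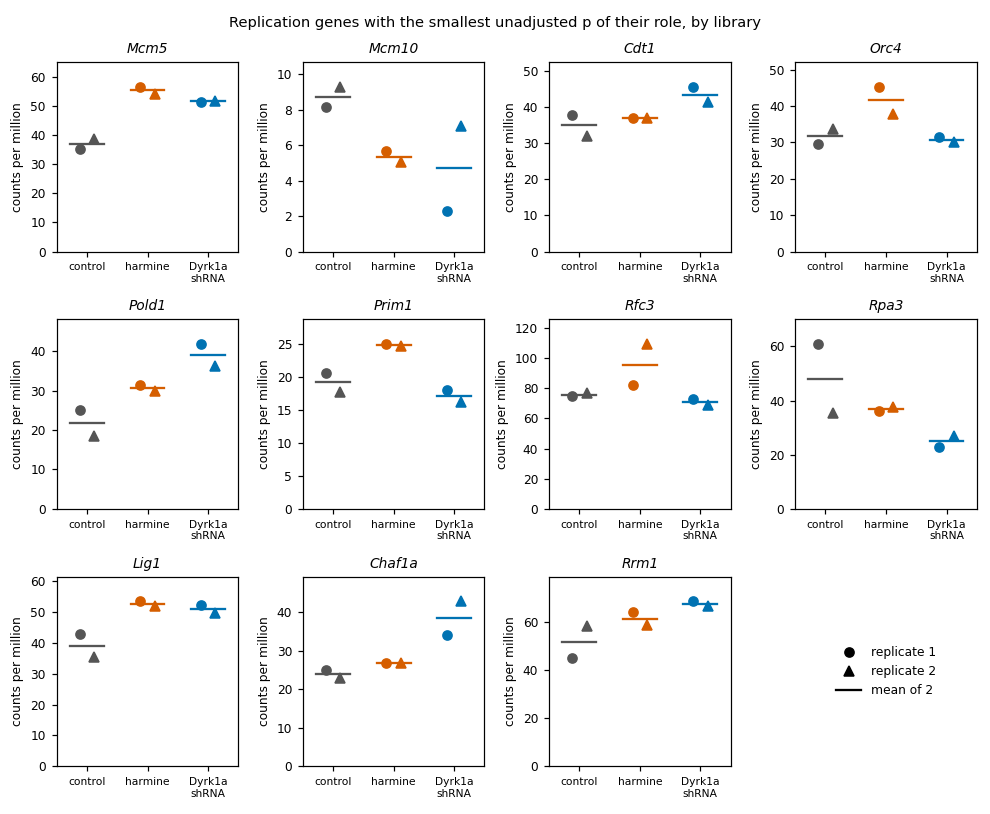
CPM in each library for the 11 replication genes with the smallest unadjusted p of their role (circles, replicate 1; triangles, replicate 2; lines, mean of 2). *Mcm5* and *Lig1* lie higher in all 4 treated libraries than in the controls, while *Chaf1a* and *Pold1* are highest and *Rpa3* is lowest with *Dyrk1a* shRNA.

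Among the factors that turn the loaded ring into an active helicase, the pattern was mixed and the counts were low. The median was 0.21 with harmine and 0.08 with *Dyrk1a* shRNA, and without control replicate 2 it turned to -0.09 and -0.26. *Mcm10*, which acts when the helicase is activated, had fold changes of the opposite sign to the ring subunits, with 8.16 and 9.29 CPM in the controls, 5.66 and 5.02 with harmine, and 2.30 and 7.07 with *Dyrk1a* shRNA. All 4 treated libraries lay below both controls, and the libraries with *Dyrk1a* shRNA differed 3.08-fold from each other. The log2 fold changes of *Mcm10* were -0.70 (SE 0.50, edgeR adjusted p = 0.938) and -0.82 (SE 0.51, edgeR adjusted p = 0.720). Of the GINS subunits, *Gins3* lay above both controls in all 4 treated libraries (5.65 and 5.91 CPM in the controls, 7.66 to 8.71 in the others), whereas *Gins1*, *Gins2*, *Gins4* and *Cdc45* overlapped the controls under both treatments.

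The polymerases gave the largest positive value of the group. *Pold1*, the catalytic subunit of polymerase delta, which extends the lagging strand, was at 25.1 and 18.6 CPM in the controls, 31.3 and 29.8 with harmine and 41.8 and 36.3 with *Dyrk1a* shRNA. The 3 groups did not overlap, with harmine between the others. *Pold1* had a log2 fold change of 0.81 with *Dyrk1a* shRNA (SE 0.25, unadjusted p = 0.00499, edgeR adjusted p = 0.612) and 0.46 with harmine (SE 0.25, edgeR adjusted p = 0.928). With trends on transcript length and GC content removed from each library, the value with *Dyrk1a* shRNA was 0.49. The other subunits of polymerases delta and epsilon, *Pold2*, *Pold3*, *Pole* and *Pole2*, lay between -0.22 and 0.17 with harmine and between -0.13 and 0.04 with *Dyrk1a* shRNA, so the higher level was found for 1 of 5 subunits.

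Polymerase alpha and its primase, which start each new strand, were above 0 for 4 of 4 genes with harmine (median 0.35) and for 3 of 4 with *Dyrk1a* shRNA (median 0.31). *Prim1*, the catalytic primase subunit, was at 20.7 and 17.7 CPM in the controls, 25.0 and 24.8 with harmine and 18.0 and 16.2 with *Dyrk1a* shRNA. The harmine libraries lay above the other 4. Between *Dyrk1a* shRNA and harmine its log2 fold change was -0.55 (SE 0.24, unadjusted p = 0.0365, edgeR adjusted p = 0.831), and -0.35 with the length and GC trends removed. *Prim2*, the other primase subunit, lay above both controls in both harmine libraries, as did 16.4% of all genes. *Pola1* and *Pola2* lay above both controls with *Dyrk1a* shRNA, as did 18.5% of all genes. *Pola1* was low, at 3.77 and 4.22 CPM in the controls, with an SE of 0.52 for this log2 fold change.

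The values of the clamp and its loader had both signs. *Pcna* was at 231 and 185 CPM in the controls, 215 and 160 with harmine, and 155 and 161 with *Dyrk1a* shRNA. Both libraries with *Dyrk1a* shRNA lay below both controls, and harmine overlapped both groups. The log2 fold change of *Pcna* with *Dyrk1a* shRNA was -0.40 (SE 0.20, unadjusted p = 0.0613, edgeR adjusted p = 0.658). *Rfc1*, the large loader subunit, was at 64.7 and 65.8 CPM in the controls and from 52.9 to 55.1 in the other 4 libraries, with log2 fold changes of -0.26 and -0.30. *Rfc3*, a small loader subunit, was at 74.7 and 76.8 CPM in the controls, 82.0 and 109 with harmine and 73.2 and 68.7 with *Dyrk1a* shRNA. The groups did not overlap, with harmine highest. Its log2 fold change between *Dyrk1a* shRNA and harmine was -0.43 (SE 0.19, unadjusted p = 0.0375, edgeR adjusted p = 0.833), and -0.21 without harmine replicate 2. *Rfc2*, *Rfc4* and *Rfc5* overlapped in each comparison, at log2 fold changes of 0.00 to 0.25 against control.

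The single-strand binding protein RPA, which coats unwound DNA, held the most negative value of the group. *Rpa3*, its smallest subunit, was at 60.9 and 35.5 CPM in the controls, 36.1 and 37.5 with harmine and 23.0 and 27.1 with *Dyrk1a* shRNA. The libraries with *Dyrk1a* shRNA lay below the other 4, and control replicate 1 lay far above control replicate 2. With *Dyrk1a* shRNA its log2 fold change was -0.96 against control (SE 0.26, unadjusted p = 0.0018, edgeR adjusted p = 0.612) and -0.55 against harmine (SE 0.24, unadjusted p = 0.0378, edgeR adjusted p = 0.836). Without control replicate 1 the value against control was -0.50, and without control replicate 2 it was -1.27 and passed (edgeR adjusted p = 0.00405), the only call of a replication gene under any setting or left-out library. In that same fit 439 genes were called over the whole table, in place of 2. With length and GC trends removed it was -0.28 against control and -0.14 against harmine. *Rpa3* is among the genes that were highest in control replicate 1 together with the ribosomal protein genes. *Rpa1*, the large subunit, had a value of the opposite sign (0.27 against control), with both libraries with *Dyrk1a* shRNA at 96.9 and 100.2 CPM above the other 4, which spanned 73.4 to 91.2, and *Rpa2* overlapped between *Dyrk1a* shRNA and each other group.

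Of the genes that join Okazaki fragments, *Lig1*, the replicative DNA ligase, was at 42.7 and 35.5 CPM in the controls, 53.4 and 52.0 with harmine and 52.1 and 49.5 with *Dyrk1a* shRNA. All 4 treated libraries lay above both controls, and the treatments overlapped. *Lig1* had a log2 fold change of 0.42 with harmine (SE 0.21, unadjusted p = 0.0629, edgeR adjusted p = 0.928) and of 0.37 with *Dyrk1a* shRNA (SE 0.21, edgeR adjusted p = 0.705). *Fen1*, the flap nuclease that acts before the ligase, lay between 15.2 and 18.0 CPM in all 6 libraries.

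The 3 genes that restore chromatin behind the fork lay above both controls in all 4 treated libraries. Against the same controls, 16.4% of all genes lay above both with harmine and 18.5% with *Dyrk1a* shRNA. The share for both treatments at once was not computed. *Chaf1a*, the large subunit of the histone chaperone that PCNA recruits, was at 25.1 and 22.8 CPM in the controls, 26.8 and 26.7 with harmine, and 34.1 and 42.7 with *Dyrk1a* shRNA. The harmine libraries were close to the controls and the libraries with *Dyrk1a* shRNA were above both groups. *Chaf1a* had a log2 fold change of 0.68 against control (SE 0.24, unadjusted p = 0.0131, edgeR adjusted p = 0.612) and 0.53 against harmine (SE 0.21, unadjusted p = 0.0238, edgeR adjusted p = 0.830), the latter 0.35 without *Dyrk1a* shRNA replicate 2 and 0.34 with length and GC trends removed. *Uhrf1*, which brings the maintenance DNA methyltransferase to new DNA, was at 61.5 and 54.9 CPM in the controls, 62.9 and 63.9 with harmine and 85.1 and 69.3 with *Dyrk1a* shRNA, where the latter were again the highest. Its log2 fold change against control was 0.40 (SE 0.20, edgeR adjusted p = 0.665). *Chaf1b* was low, at 2.53 to 7.75 CPM, and its level in control replicate 2 was the lowest. The summed CPM of the 3 genes was 92.9 and 80.2 in the controls, 97.5 and 97.2 with harmine, and 126 and 119 with *Dyrk1a* shRNA. Their median log2 fold change with *Dyrk1a* shRNA was 0.66, and 0.32 without control replicate 2.

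The genes of nucleotide supply had medians near 0, at 0.01 with harmine and -0.07 with *Dyrk1a* shRNA, and at -0.23 and -0.35 without control replicate 2. *Rrm1*, the large subunit of ribonucleotide reductase, was at 45.2 and 58.2 CPM in the controls, 64.4 and 58.6 with harmine and 68.6 and 66.6 with *Dyrk1a* shRNA. The groups did not overlap, although harmine replicate 2 was close to control replicate 2. The log2 fold change of *Rrm1* with *Dyrk1a* shRNA was 0.40 (SE 0.21, unadjusted p = 0.0745, edgeR adjusted p = 0.675). Its partner *Rrm2* and the thymidylate synthase gene *Tyms* lay below both controls with *Dyrk1a* shRNA, at log2 fold changes of -0.12 and -0.44, so the subunits of the reductase had values of opposite sign. *Tk1*, of thymidine salvage, and *Dut*, which removes dUTP, overlapped in each comparison.

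**Figure D4:**
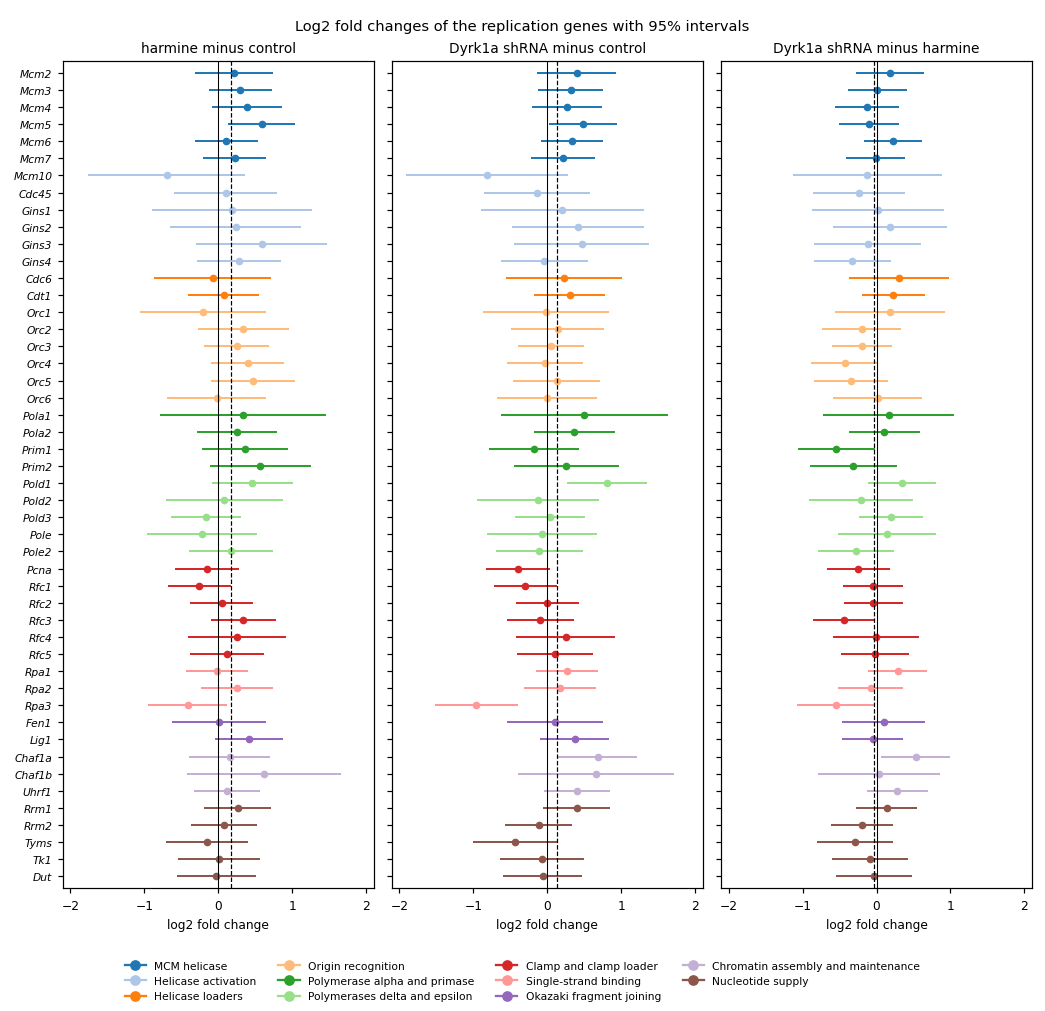
Log2 fold change of each of the 48 replication genes (dots) with its 95% interval (lines), coloured by role, in the 3 comparisons, with the median of the 48 as a dashed line. Most intervals span 0, and the dashed lines lie at 0.18, 0.13 and -0.04.

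The genes with an E2F motif in the promoter window were set beside those without. Against control, the 16 genes with the motif had a median log2 fold change of 0.24 with harmine and 0.31 with *Dyrk1a* shRNA, and the 25 genes without it had 0.10 and -0.01. With harmine, 13 of 16 genes with the motif and 17 of 25 without it were above 0, and with *Dyrk1a* shRNA 13 of 16 and 12 of 25. The 7 genes with no window had medians of 0.24 and 0.20. These are descriptions with no test, and over all genes the fold change with *Dyrk1a* shRNA was higher where the GC content of the transcript was higher (Spearman's rho 0.34 against control and 0.42 against harmine over 9990 genes, which are not independent, and 0.00 between harmine and control).

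Other genes of the same processes were examined from lists. Of 36 further fork and firing factors tested, with medians of 0.06 with harmine and 0.00 with *Dyrk1a* shRNA, none passed. *Chtf8*, a subunit of an alternative clamp loader, was at 81.0 and 96.2 CPM in the controls, 90.9 and 90.3 with harmine and 144 and 141 with *Dyrk1a* shRNA, at a log2 fold change of 0.69 against control (SE 0.19, unadjusted p = 0.00189, edgeR adjusted p = 0.612) and 0.66 against harmine. The harmine libraries lay between the controls, and both libraries with *Dyrk1a* shRNA lay far above the other 4. *Lrwd1*, which binds the origin recognition complex, had 0.54 with *Dyrk1a* shRNA, *Tonsl*, which acts at stalled forks, had 0.54 against harmine, and *Gtse1*, a microtubule protein kept in this list for its expression in S and G2 phase, had 0.92 with harmine and 0.82 with *Dyrk1a* shRNA. None of these passed after adjustment.

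Among 26 further genes of nucleotide synthesis (medians 0.09 and 0.04), the purine synthesis gene *Paics* had a log2 fold change of 0.54 and the CTP synthase gene *Ctps* of 0.82 with harmine, *Impdh1*, of guanine nucleotide synthesis, had 0.53 with *Dyrk1a* shRNA, and the p53-induced reductase subunit *Rrm2b* had -0.78 between *Dyrk1a* shRNA and harmine. *Nme1* had -0.65 and -0.75 against control, with 139 CPM in control replicate 1 and 62.5 to 69.2 in the other 5 libraries, so that 1 library stood apart. None passed.

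Lists of the regulators of these genes were small. The 13 E2F and pocket protein genes had medians of 0.16 and 0.14, with *E2f5* at 0.89 between *Dyrk1a* shRNA and harmine (SE 0.35, edgeR adjusted p = 0.830), and the 7 genes of the MuvB core and B-MYB had medians of 0.00 and -0.18 with no gene at an unadjusted p under 0.05.

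The 30 mitosis genes, which follow replication in the cycle, had medians of 0.27 with harmine (26 above 0), 0.01 with *Dyrk1a* shRNA (15 above 0) and -0.21 between them (2 above 0), where the replication genes had 0.18, 0.13 and -0.04. None passed. The log2 fold changes of the named mitosis genes were 0.89 for *Anln*, 0.68 for *Plk1* and 0.60 for *Kif11* with harmine, -0.60 for *Cenpf* with *Dyrk1a* shRNA, and -1.10 for *Ttk* and -0.55 for *Kif23* between the treatments. Replicates of 1 group also differed in this list, by medians of -0.16, -0.30 and -0.29 for replicate 2 minus replicate 1 in the control, harmine and *Dyrk1a* shRNA groups. In size these differences lie in the range of the median between the treatments, which compares 2 libraries with 2. Their sign is set by the order of subtraction. *Dyrk1a* shRNA replicates 1 and 2 differed from harmine replicate 1 by medians of -0.25 and -0.51. From harmine replicate 2 they differed by 0.09 and -0.19.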

How the data were processed

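Reads were mapped to mm10 by the authors using TopHat, and RSEM, run on known transcripts, gave the expected counts of each gene that they deposited, unnormalized, in 1 table. TopHat2 2.0.13, RSEM and DESeq are named in the submitters' processing notes, while the RSEM version and annotation release are not given in the sources used here. Columns were matched to libraries by the labels.

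After rounding, a robust quasi-likelihood model with 3 group means was fitted to all 6 libraries in edgeR 4.0.16 (R 4.3.3), with TMM scaling and genes kept by filterByExpr at min.count 10. Tests were two-sided, with Benjamini-Hochberg adjustment over 10607 genes and a threshold of 0.05. The fit was tested on simulated data. CPM are counts scaled to a TMM-adjusted library of 1000000, without a pseudocount. Positions, lengths and GC content are from GENCODE M21 (GRCm38, the assembly of mm10), promoters from RefSeq.

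The replication genes, other lists and marker lists were chosen with earlier results of these data known. Values in every library are given for genes at an unadjusted p under 0.05 in any comparison and for the smallest p in each role. Of other lists up to 3 genes per comparison at an unadjusted p under 0.05 are named, by smallest p. The values of *Pcna*, *Rfc1*, *Gins3*, *Rpa1* and *Uhrf1* by library were added after they were seen. Promoter stretches are of the 4 genes with values in every library, the motif and the smallest p. No set test was run.

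Alternatives were scaling by library size or by DESeq2 size factors, DESeq2 1.42.0 with its Wald test, dropping the filter or raising it to 50 counts, a replicate block, the compared pair alone, thinning to the depth of the smallest library, removal of length and GC trends (natural splines, 4 degrees of freedom) with and without the block, and leaving out each library.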

Additional observations from a re-analysis of the deposited data

How the results depend on the processing

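No replication gene was called in any comparison under the alternatives, except *Rpa3* with *Dyrk1a* shRNA against control without control replicate 2, so that leaving out 1 library gave 0 to 1 calls. The values of *Chaf1a*, *Mcm5*, *Pold1*, *Prim1*, *Rfc3* and *Rpa3* at an unadjusted p under 0.05 kept their direction under every alternative. Other genes were not followed one by one, apart from the MCM subunits, of which the number above 0 was counted in each run. The median log2 fold change with harmine (0.18) ranged from 0.076 to 0.25 when 1 library was left out, and those with *Dyrk1a* shRNA against control and against harmine moved by less than the spread between replicates. Counts at an unadjusted p under 0.05 were less stable. With harmine the count of 1 became 2 with the replicate block, 3 after thinning, 2 with length and GC trends removed, 2 with both the trends removed and the replicate block, and 0 to 4 when 1 library was left out. With *Dyrk1a* shRNA against control the count of 4 became 2 by DESeq2, 6 with the replicate block and 6 without control replicate 2. Between *Dyrk1a* shRNA and harmine the count of 4 became 2 with library size scaling, 0 by DESeq2, 2 after thinning, 0 with the trends removed, 0 with the trends removed and the replicate block, and 0 to 5 when 1 library was left out. The cause of these moves was not tested. Replicate numbers were not taken as pairs, since the labels give no shared source and deviations of same-numbered libraries correlated at 0.12, 0.02 and 0.24. The controls, with 1743428 and 1096345 counts, limit both comparisons with control.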
